A study of Mus musculus with 10 samples.

Results

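The EGR, NR4A and IER early genes described here are 10 genes, Egr1, Egr2, Egr3, Nr4a1, Nr4a2, Nr4a3, Ier2, Ier3, Ier5 and Zfp36, taken by gene symbol from a table of 24608 symbols. They were measured in muscle satellite cells (MuSCs), the stem cells of skeletal muscle, isolated 3 days after muscle injury with cardiotoxin (CTX). The members were chosen on values of the same comparison of genotypes, so their counts, levels and fold changes are a description and carry no test.

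The control libraries came from Trpm7+/+; Pax7CreERT2/+; Rosa26-YFP mice and the Trpm7 cKO libraries from Trpm7 flox/flox; Pax7CreERT2/+; Rosa26-YFP mice, 5 libraries per genotype. Trpm7 encodes an ion channel that carries magnesium, and the comparison asks how its loss changes the transcripts of activated MuSCs. Mice were adults on a C57BL6 background, and both genotypes carried the Cre and the YFP reporter, received tamoxifen and were injured with CTX. The Cre is a tamoxifen-dependent recombinase expressed from the Pax7 locus, so the deletion is directed to Pax7-expressing cells and their progeny. For each library 3000 YFP-positive cells were sorted by flow cytometry, lysed, and read by CEL-Seq2, which counts the 3′ end of each mRNA with molecular identifiers (UMIs). The counts of a gene therefore stand for molecules and do not scale with transcript length, and levels of different genes can be compared without a length correction. Trpm7 itself was at 76.9 ± 9.97 CPM (counts scaled to a common library size) in control and 71.4 ± 22.0 CPM in Trpm7 cKO (SD, n = 5), with overlapping libraries. Whether its counted 3′ end includes the deleted part was not examined, so these counts do not check the deletion, and genotypes were taken from the labels. The labels do not say that each library came from a different mouse, and those of Trpm7 cKO replicates 4 and 5 share a number whose meaning is not given. The spread between libraries may therefore be partly technical.

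Early response genes are transcribed within minutes of a stimulus, without new protein synthesis, when ERK and p38 signalling act on SRF with its ternary complex factors or on CREB. EGR proteins are zinc-finger transcription factors held in check by the corepressors NAB1 and NAB2. NR4A proteins are orphan nuclear receptors that act without a known ligand. IER genes encode short-lived proteins of several kinds. Zfp36 encodes tristetraprolin, which binds AU-rich elements in 3′ UTRs and recruits the deadenylase that shortens poly(A) tails. In quiescent satellite cells it is known to hold down Myod1 mRNA. Genes of this class are also induced while muscle is dissociated into single cells, a step that libraries of both genotypes went through.

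The control libraries held 914361 to 1097709 counts and the Trpm7 cKO libraries 205986 to 581121. All 15 MuSC markers were detected in every library, summing to 4604 to 5345 CPM in control and 3035 to 4736 CPM in Trpm7 cKO, and 8 of 15 were higher and 4 lower in Trpm7 cKO with a median log2 fold change of 0.46. The summed level of 24 leukocyte markers was 279 to 511 CPM in control and 1211 to 5080 CPM in Trpm7 cKO, and 17 of 17 markers that could be tested were higher. Of these markers, Cd3e and Cd79a had no count in any control library and none had no count in all Trpm7 cKO libraries. The summed level of 10 endothelial markers was 6.44 to 64.8 CPM against 118 to 657 CPM, with both tested markers higher. Markers had to pass a filter on low counts to be tested, and those low in control passed it only through Trpm7 cKO. Csf1r, for example, was at 5.79 to 11.8 CPM in control and 36.8 to 121 CPM in Trpm7 cKO. The shares of tested leukocyte and endothelial markers that were higher therefore carry no test. The 10 fibroadipogenic markers summed to 2457 to 4152 CPM in control and 2470 to 5026 CPM in Trpm7 cKO, and 6 of 8 tested rose and 1 fell. The part of these cells in the results below was not tested, apart from the fit with a leukocyte score given there. In sorted pools, fewer molecules per cell and fewer cells of a type cannot be told apart.

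Sequences of the transcripts and promoters come first, since the members differ in them in a way that the choice of genes did not use. The heptamer TATTTAT, the core of an AU-rich element and a binding site of tristetraprolin, was searched in the annotated 3′ UTR of each member. It was found 4 times in Ier3 (3′ UTR of 613 bases), 3 times in Zfp36 itself (774 bases), 2 times in Nr4a3 (3093 bases) and once in Nr4a2 (1326 bases). It was absent from the 3′ UTRs of Egr1, Egr2, Egr3, Nr4a1, Ier2 and Ier5. Thus 40% of the members held at least 1 heptamer against 33.3% of 7453 tested genes with a coding transcript, and 30% held at least 2 against 12.1%. One site of each of the 4 members that hold it is printed below to show its surroundings, with the heptamer in capitals, 5′ to 3′ on the strand of the gene, in GRCm38 coordinates with GENCODE vM21 transcripts.
Ier3, chr17:35822481-35822509, plus strand: tgtctaattaaTATTTATgTATTTATgta
Zfp36, chr7:28376951-28376979, minus strand: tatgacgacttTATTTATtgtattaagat
Nr4a3, chr4:48084754-48084782, plus strand: agctttgcctgTATTTATtgcaagaccac
Nr4a2, chr2:57107545-57107573, minus strand: tattttgtgccTATTTATgaataaatatt
The Ier3 stretch carries 2 heptamers a single base apart.

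RefSeq promoter windows (GRCm38.p6, 250 bases before to 50 after a start) were at hand for 7 members, and those of Egr1, Egr3 and Ier2 were not used here. Both strands were searched for the CArG box bound by SRF, the full CRE TGACGTCA bound by CREB, the EGR site GCGGGGGCG or GCGTGGGCG, the NR4A monomer site AAAGGTCA and the TATA box TATAAA. A CArG box lay in the windows of Egr2 and Zfp36, against 1.81% of 27025 genes and 1.63% of all windows. Egr2 was searched in 5 windows and Zfp36 in 1, and a gene with more windows has more sequence in which to hold a match. An EGR site lay in those of Nr4a1 and Zfp36, against 3.93% of all genes and 8.47% of genes tested. None of the 7 members had the full CRE (2.03% of genes) or the NR4A site (1.7%). The letters TATAAA were found for Nr4a2 only (15.67% of genes), on the opposite strand and 164 bases before the start. The stretches are printed because they hold the sites through which SRF and EGR proteins are known to act, with the motif in capitals.
Egr2, CArG box, chr10:67537484-67537513, plus strand: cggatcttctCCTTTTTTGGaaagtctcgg
Egr2, CArG box, chr10:67537787-67537816, plus strand: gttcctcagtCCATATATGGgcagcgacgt
Zfp36, CArG box, chr7:28379267-28379296, minus strand: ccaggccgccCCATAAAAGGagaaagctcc
Zfp36, EGR site, chr7:28379315-28379343, minus strand: gagctacgccGCGGGGGCGcgtcccggaa
Nr4a1, EGR site on the opposite strand, chr15:101266776-101266804, plus strand: gcgtcagtggCGCCCCCGCccctctccat
Each Egr2 box lay 72 bases before an annotated start and inside an intron of longer annotated transcripts. The Zfp36 sites lay 58 and 105 bases before a start and within an exon of a longer annotated transcript. The Nr4a1 site lay 60 bases before a start and in an intron of a longer transcript. A match is a description of letters and not of binding.

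Egr1 was the most abundant member in both genotypes. It lies at chr18:34859823-34864984 and encodes the most widely studied EGR factor. Control replicates 1 to 5 gave 506, 637, 517, 594 and 735 counts of it, and Trpm7 cKO replicates, here and below in the same order, gave 2066, 1992, 821, 1054 and 618. Normalized by TMM, which scales libraries to each other on most of their genes, these were 503, 658, 555, 596 and 851 CPM in control and 3817, 3666, 3000, 1746 and 3410 CPM in Trpm7 cKO. The groups did not overlap after normalization, and the lowest Trpm7 cKO library, replicate 4, was still above the highest control library. The means were 632.5 ± 135 and 3128 ± 832 CPM (SD, n = 5), a log2 fold change of 2.31 ± 0.20 (SE). Egr1 held 31.5% of the members' counts in control and 42.8% in Trpm7 cKO, as a mean over libraries.

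Egr2, chr10:67535475-67542188, encodes a relative best known for its part in myelination. It stood at 60.7, 75.4, 96.5, 116 and 114 CPM in control and at 386, 324, 230, 149 and 237 CPM in Trpm7 cKO. No Trpm7 cKO library fell into the control range, and replicate 4 was again the lowest. The log2 fold change was 1.53 ± 0.23, the smallest of the family. Egr3 (chr14:70077203-70082614), a target of calcium signalling that muscle spindles need, was the rarest member, with 13 to 23 counts in control and 9 to 37 in Trpm7 cKO. Its normalized levels were 15.9, 23.8, 13.9, 21.1 and 19.7 CPM against 68.4, 51.5, 84.0, 41.4 and 49.7 CPM. These ranges stood apart although the raw counts of the groups overlapped, and the log2 fold change was 1.61 ± 0.24.

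The NR4A family divided into 2 genes with higher levels in Trpm7 cKO and 1 without a called difference. Nr4a1 (chr15:101254269-101274795), also called Nur77, is the member induced by many receptor signals. Its counts were 203, 233, 210, 214 and 212 in control and 431, 373, 209, 311 and 189 in Trpm7 cKO. These correspond to 202 to 245 CPM and 515 to 1043 CPM. Control libraries differed by little, with a coefficient of variation of 7.98%, and every Trpm7 cKO library lay above them. The log2 fold change was 1.74 ± 0.16. Nr4a3 (chr4:48045153-48086447), also called Nor1, was at 58.7, 43.4, 50.4, 61.2 and 61.4 CPM in control and at 185, 145, 230, 101 and 177 CPM in Trpm7 cKO. Its groups were separate too, with a log2 fold change of 1.57 ± 0.20.

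Nr4a2, chr2:57106830-57124003, also called Nurr1 and known for its role in dopamine neurons, was the exception. It had 233, 211, 184, 177 and 176 counts in control and 104, 91, 92, 173 and 48 in Trpm7 cKO, so raw counts were lower in every Trpm7 cKO library. Normalized levels were 232, 218, 197, 178 and 204 CPM in control against 192, 168, 336, 287 and 265 CPM in Trpm7 cKO. Replicates 1 and 2 of Trpm7 cKO lay within or below the control range and the other 3 lay above it. The log2 fold change of 0.26 ± 0.17 was positive or negative depending on the scaling. It was -0.04 ± 0.24 when libraries were scaled on 11 MuSC identity genes.

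Among the IER genes, Ier3 (chr17:35821684-35822923), whose product acts on apoptosis and ERK signalling, showed the greatest fold change of the 10 members. It had 66, 105, 54, 70 and 82 counts in control and 203, 209, 128, 244 and 136 counts in Trpm7 cKO. It was the one member whose raw counts were higher in Trpm7 cKO without overlap, although every Trpm7 cKO library was shallower than every control library. Normalized, the range was 57.9 to 108 CPM in control and 375 to 751 CPM in Trpm7 cKO, with replicate 5 well above the other 4. The log2 fold change was 2.55 ± 0.21.

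Ier2, chr8:84661331-84662852, which encodes a small nuclear protein, was at 149, 151, 123, 97.4 and 184 CPM in control. In Trpm7 cKO it was at 480, 440, 460, 345 and 541 CPM, separate from the controls and with the smallest relative spread of the members in that genotype (coefficient of variation 15.8%). The log2 fold change was 1.67 ± 0.17. Ier5 (chr1:155096361-155099636), a target of heat shock factor 1 and of p53, had 221, 206, 163, 184 and 189 counts in control and 167, 147, 117, 227 and 129 in Trpm7 cKO. Its normalized levels were 175 to 220 CPM against 309, 271, 428, 376 and 712 CPM. These ranges did not overlap, but Trpm7 cKO libraries varied most for this member (41.7%), and the log2 fold change was the second smallest at 1.01 ± 0.20.

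Zfp36, chr7:28376784-28380253, was second in level in both genotypes. It had 264, 299, 291, 319 and 433 counts in control and 827, 662, 330, 518 and 263 counts in Trpm7 cKO. Normalized, these were 263, 309, 312, 320 and 501 CPM against 1528, 1218, 1206, 858 and 1451 CPM. Control replicate 5 stood above the other controls and still below all Trpm7 cKO libraries. The log2 fold change was 1.87 ± 0.19.

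**Figure D1:**
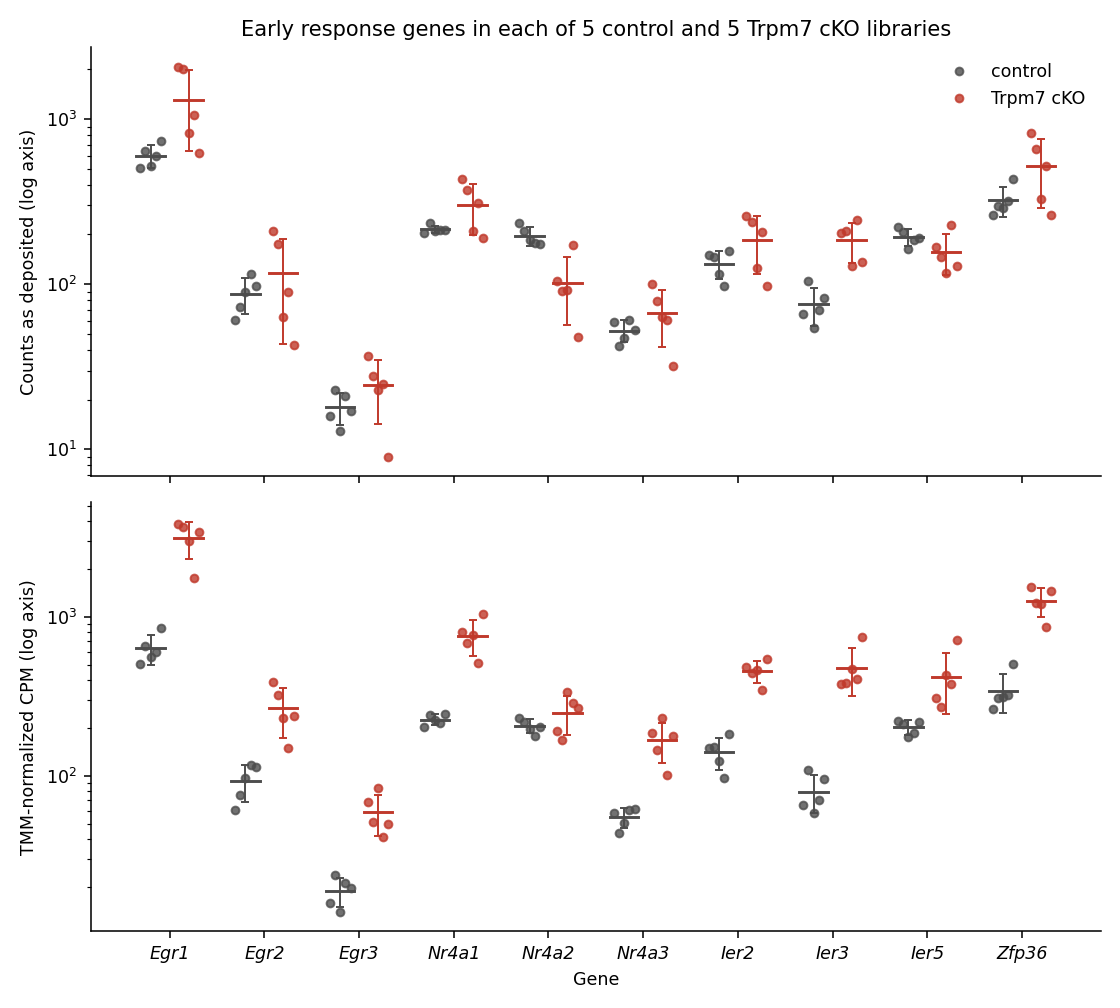
Counts as deposited (upper panel) and TMM-normalized CPM (lower panel) of the 10 early genes, both on log axes, with 1 point per library, replicates 1 to 5 from left to right within a group, and the mean ± SD of 5 libraries. In the lower panel the 2 genotypes are separate for every gene but Nr4a2, and in the upper panel for Ier3, which is higher in Trpm7 cKO, and Nr4a2, which is lower.

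In all, 9 of 10 members passed an adjusted p of 0.05 with a higher level in Trpm7 cKO, where 24.6% of the 7753 genes tested were higher and 24.1% lower. With a log2 fold change above 1.5 as well, 8 of 10 passed against 8.49% of all genes. For 9 of 10, normalized levels did not overlap between genotypes and were higher in Trpm7 cKO, against 16.6% of all genes. Because the members were chosen on this contrast, nothing is read from these shares. All 10 members passed the filter on low counts. Their median log2 fold change was 1.64, against -0.01 for all genes tested. Egr2 lay just above the threshold of 1.5 at 1.53, and Ier5 was the nearest below it at 1.01.

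The size of the fold changes depended on what the libraries were scaled to, and for Nr4a2 and Ier5 their direction did too. The other 8 members had a log2 fold change above 0 in every setting in which they were tested. TMM called 1908 genes higher and 1866 lower, scaling on 11 MuSC identity genes called 1153 higher and 2662 lower, and counts per 3000 sorted cells called 380 higher and 5162 lower. Those scalings put the median of all genes at -0.34 and -1.15. Under the MuSC identity scaling 9 members were still called higher, 3 of them past both thresholds (Egr1 at 1.93, Ier3 at 2.24 and Zfp36 at 1.52). Those 11 genes are not a fixed reference. Among them, Pax7 was at 166 to 259 CPM in control and 265 to 557 CPM in Trpm7 cKO under TMM. Cdh15, also among them, overlapped at 211 to 237 CPM and 139 to 298 CPM. Counted per 3000 sorted cells, only Egr1 (1.13 ± 0.38) and Ier3 (1.29 ± 0.38) were called higher, and Nr4a2 was called lower at -0.95 ± 0.38. Ier5 was below 0 at -0.29 ± 0.38, and no member passed both thresholds. That setting takes counts as they stand, so differences in depth between libraries remain in it. Every Trpm7 cKO library was shallower than every control library, so these values do not separate depth from molecules per cell. Relative to the median of all genes, all 10 members were above it under each of these scalings.

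With the mean log2 level of the leukocyte markers as a covariate, 7 members were called higher, namely Egr1, Egr2, Nr4a1, Nr4a3, Ier2, Ier3 and Zfp36, where 5.03% of all genes were. Egr3 was not called at 1.64 ± 0.62, Ier5 turned to -0.35 ± 0.44 and Nr4a2 to -0.82 ± 0.42. Leukocyte markers and genotype moved together in these 10 libraries, and standard errors were larger in that fit for every member.

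**Figure D2:**
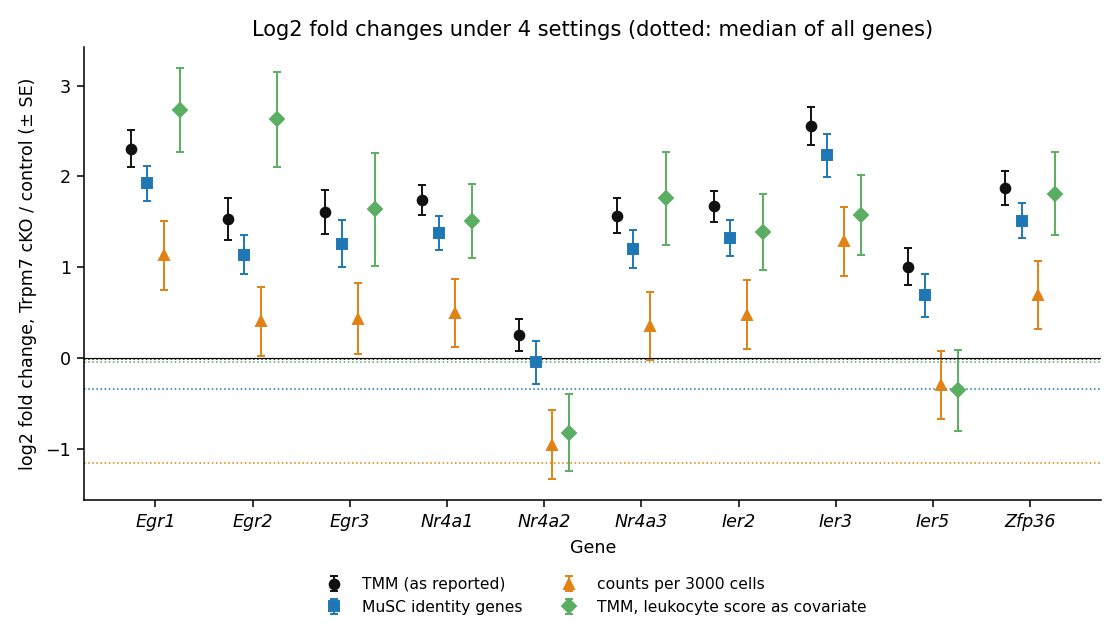
Log2 fold changes of Trpm7 cKO over control with SE for the 10 early genes, under TMM, under scaling on MuSC identity genes, as counts per 3000 sorted cells, and under TMM with the leukocyte score as a covariate, with each setting's median of all genes as a dotted line. Nr4a2 lies below 0 in all settings but TMM, Ier5 in 2 of them, and Egr1 and Ier3 stay above 1 in all 4.

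Ratios between members within a library need no scaling. They were computed after the levels had been seen, and are a description. Nr4a1 had 0.871 to 1.21 counts per count of Nr4a2 in control and 1.80 to 4.14 in Trpm7 cKO. The Trpm7 cKO ratios were 4.14, 4.10, 2.27, 1.80 and 3.94 in replicates 1 to 5, so that replicates 3 and 4 stood nearest to the controls. Nr4a3 moved in the same direction against Nr4a2, from 0.199 to 0.345 in control to 0.353 to 0.962 in Trpm7 cKO, with a narrow gap. Nr4a1 and Nr4a3 kept overlapping ratios to each other, 3.44 to 5.55 and 3.32 to 5.91. Nr4a2 was therefore the NR4A gene whose ratio to both others differed between genotypes.

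Within the IER genes, 0.299 to 0.510 counts of Ier3 were found per count of Ier5 in control and 1.05 to 1.42 in Trpm7 cKO, so that Ier5 was ahead in each control library and Ier3 in each Trpm7 cKO library. The ratio of Ier2 to Ier5 overlapped, at 0.527 to 0.841 against 0.760 to 1.63. In the EGR family, Egr1 had 5.12 to 8.73 counts per count of Egr2 in control and 9.89 to 14.4 in Trpm7 cKO. Its ratio to Egr3 overlapped, at 27.7 to 43.2 against 35.7 to 71.1.

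**Figure D3:**
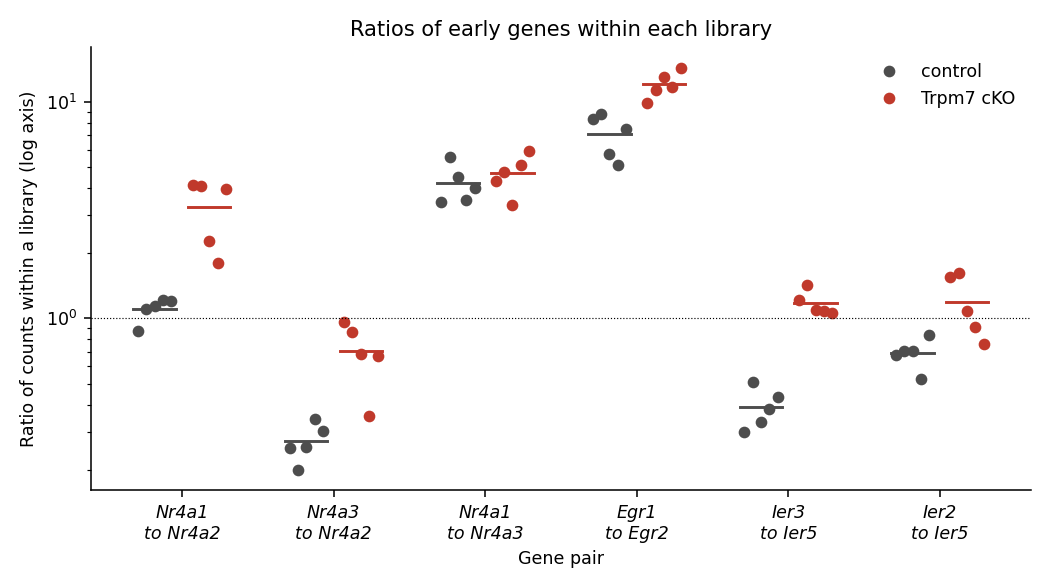
Ratio of the counts of 2 early genes within each library, on a log axis, for 6 pairs, with 1 point per library and a line at the mean of 5. The control and Trpm7 cKO points are separate for Nr4a1 to Nr4a2, Nr4a3 to Nr4a2, Egr1 to Egr2 and Ier3 to Ier5, and overlap for Nr4a1 to Nr4a3 and Ier2 to Ier5.

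The order of levels in control was Egr1, Zfp36, Nr4a1, Nr4a2, Ier5, Ier2, Egr2, Ier3, Nr4a3 and Egr3, from 632.5 ± 135 to 18.9 ± 3.95 CPM (SD, n = 5). Egr1 lay above Zfp36, Zfp36 above Nr4a1, and Nr4a3 above Egr3 without overlap of their ranges. All other neighbours in that order overlapped, Nr4a1, Nr4a2 and Ier5 most closely at 226 ± 18, 206 ± 20.5 and 202 ± 20.9 CPM. In Trpm7 cKO the order was Egr1, Zfp36, Nr4a1, Ier3, Ier2, Ier5, Egr2, Nr4a2, Nr4a3 and Egr3. Ier3 and Nr4a2 had thus exchanged ranks 4 and 8, but the ranges of Ier3, Ier2 and Ier5 overlapped, as did those of Egr2 and Nr4a2.

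Summed over the 10 members, the level was 1769, 2039, 1806, 1860 and 2494 CPM in control and 8138, 7354, 7205, 4823 and 8636 CPM in Trpm7 cKO. This is 0.177% to 0.249% of a control library and 0.482% to 0.864% of a Trpm7 cKO library, in terms of its normalized size. Trpm7 cKO replicate 4 was the lowest of its group for 7 of 10 members, where it was the lowest for 20.3% of all genes tested. It had the highest leukocyte marker sum, 5080 CPM, followed by replicate 5 with 5000 CPM, which had the highest members' sum. Replicate 4 also had the lowest MuSC marker sum of its group, 3035 CPM, where replicate 5 had 4177 CPM. Replicate 2, with the lowest leukocyte sum of its group at 1211 CPM, had a members' sum of 7354 CPM. Control replicate 5 was the highest control for 5 members and had the highest leukocyte and endothelial sums among controls, 511 and 64.8 CPM. Within a genotype, the median coefficient of variation over members was 21.1% in control and 28.2% in Trpm7 cKO against 17.4% and 30.2% for all genes.

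**Figure D4:**
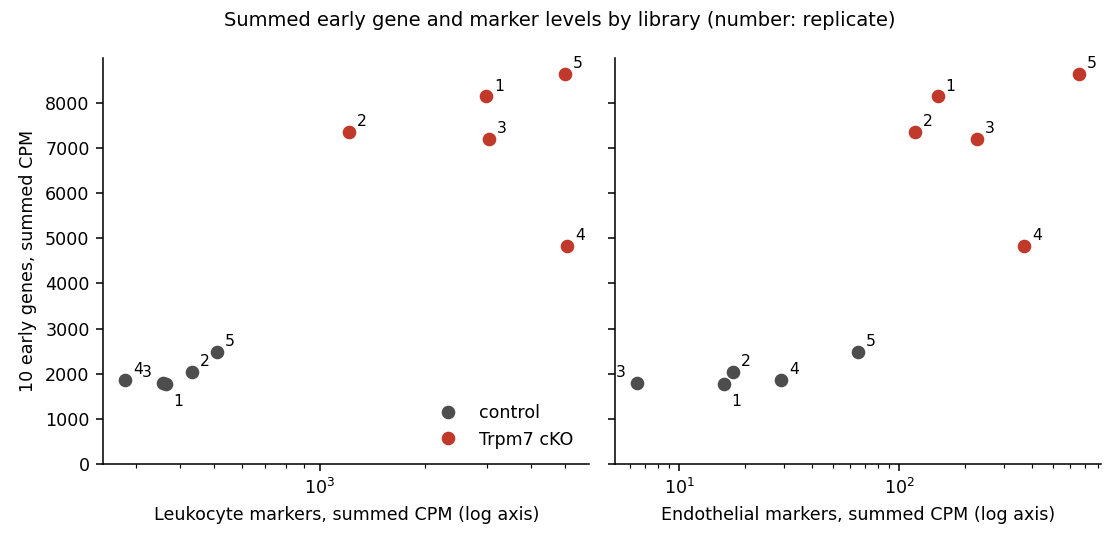
Summed CPM of the 10 early genes (vertical axis, from 0) against the summed CPM of 24 leukocyte markers (left) or 10 endothelial markers (right), both on log horizontal axes, with 1 point per library numbered by replicate. Trpm7 cKO libraries are higher on both axes in both panels, and within that genotype replicates 4 and 5 have like leukocyte sums but the lowest and the highest early gene sums. Their MuSC marker sums, not drawn, also differ, at 3035 and 4177 CPM.

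Paralogs and partners of the members were followed next, with edgeR's quasi-likelihood test and Benjamini-Hochberg adjustment over all genes, which serves for every adjusted p below. The table held 11 such genes and 7 could be tested. Among them 4 were higher in Trpm7 cKO, none was lower and 3 were not called, beside 24.6% of all genes higher and 24.1% lower. The median log2 fold change of the 7 was 0.73. Zfp36l2, which like its paralog promotes decay of AU-rich mRNAs, rose from 16.2 ± 5.88 to 87.7 ± 17.8 CPM (SD, n = 5), a log2 fold change of 2.40 ± 0.24 (adjusted p = 2.24e-07). Zfp36l1, which had the highest mean level of the 3 paralogs in both genotypes, rose from 699 ± 57.0 to 1403 ± 427 CPM (log2 fold change 1.01 ± 0.18, adjusted p = 9.86e-05). Counts of Zfp36 per count of Zfp36l1 were 0.388 to 0.679 in control and 0.774 to 1.39 in Trpm7 cKO, where Zfp36 exceeded Zfp36l1 in replicate 5 alone. Counts of Zfp36 per count of Zfp36l2 went the other way, from 16.6 to 29.0 in control to 13.0 to 17.2 in Trpm7 cKO, with overlap.

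The corepressor Nab1 rose by a log2 fold change of 0.73 ± 0.17 (adjusted p = 0.00148) and Ier5l, a paralog of Ier5, by 0.96 ± 0.31 (adjusted p = 0.015). Ier5l was at 12.25 CPM in control, so that passing the filter on low counts leaned on Trpm7 cKO. Neither call held under the MuSC identity scaling (adjusted p = 0.13 and 0.115) or with the leukocyte covariate (adjusted p = 0.196 and 0.51), and Ier5l was not called by DESeq2 or with no filter either (adjusted p = 0.0543 and 0.0784). Nab2, which EGR factors induce as a feedback repressor, was at 28.0 ± 3.91 and 36.0 ± 10.4 CPM (adjusted p = 0.205). The deadenylase subunits Cnot1 and Cnot7 had log2 fold changes of -0.19 ± 0.14 and 0.22 ± 0.20 (adjusted p = 0.268 and 0.379). Egr4 had 0 to 4 counts per library, so that no difference of that EGR gene was detectable at this depth. The retinoid X receptors, which pair with some NR4A proteins, did not pass the filter on low counts either. Among these receptors, Rxra had 8 to 13 counts in control and 3 to 15 in Trpm7 cKO. Counted per 3000 cells, Nab1, Ier5l and Zfp36l1 had log2 fold changes of -0.39, -0.21 and -0.11, and only Zfp36l2 was above 0.

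Upstream of the early genes, 36 components of the ERK, SRF and CREB routes were in the table and 31 were tested. Of these, 14 were higher in Trpm7 cKO, 6 were lower and 11 were not called, beside 24.6% of all genes higher and 24.1% lower. The median log2 fold change of the 31 was 0.40. Those that rose most were Crtc2, a coactivator of CREB (1.71 ± 0.33, adjusted p = 0.000218), and Crem, a CREB relative that is itself inducible (1.63 ± 0.33, adjusted p = 0.000437). Those that fell most were Met, the receptor of hepatocyte growth factor (-1.49 ± 0.19, adjusted p = 3.14e-06), and Hras, a RAS GTPase that feeds the ERK cascade (-1.15 ± 0.15, adjusted p = 4.71e-06). Met went from 187 ± 22.8 to 61.8 ± 23.3 CPM without overlap of the genotypes. The list thus held genes that changed in both directions. Scaling on MuSC identity genes called 7 higher and 8 lower, where 1153 of all 7753 genes were higher and 2662 lower. Counts per 3000 cells called none higher and 15 lower, where 380 of all genes were higher and 5162 lower. With the leukocyte score as a covariate edgeR called none of the 31, where it called 390 of all genes higher and 138 lower. Of the 31, 8 had an unadjusted p below 0.05. In that fit Hras was at -1.21 ± 0.43, Met at -1.15 ± 0.54, Crtc2 at 1.01 ± 0.80 and Crem at 0.58 ± 0.88, with SEs larger than without the covariate.

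Other early genes, 45 in the table and 41 tested, followed the members in most cases. Of these, 32 were higher in Trpm7 cKO, 4 were lower and 5 were not called, beside 24.6% of all genes higher and 24.1% lower. The median log2 fold change of the 41 was 1.503, and that of the members 1.64. Gadd45b, a stress-induced growth arrest gene, rose from 17.6 ± 3.60 to 409 ± 137 CPM (log2 fold change 4.50 ± 0.25, adjusted p = 2.25e-10). Ccn2, a matricellular gene driven by YAP and SRF, rose by 3.46 ± 0.36 on the log2 scale (adjusted p = 4.46e-06). Dusp5, a nuclear phosphatase of ERK, was the most reduced at -1.08 ± 0.18 (adjusted p = 5.86e-05), followed by Id1, an inhibitor of bHLH factors, at -0.72 ± 0.19 (adjusted p = 0.00429). Per 3000 cells, 12 of the 41 were called higher and 6 lower, where 380 of all 7753 genes were higher and 5162 lower. With the leukocyte score as a covariate 19 were called higher and 1 lower, where 390 of all genes were higher and 138 lower.

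**Figure D5:**
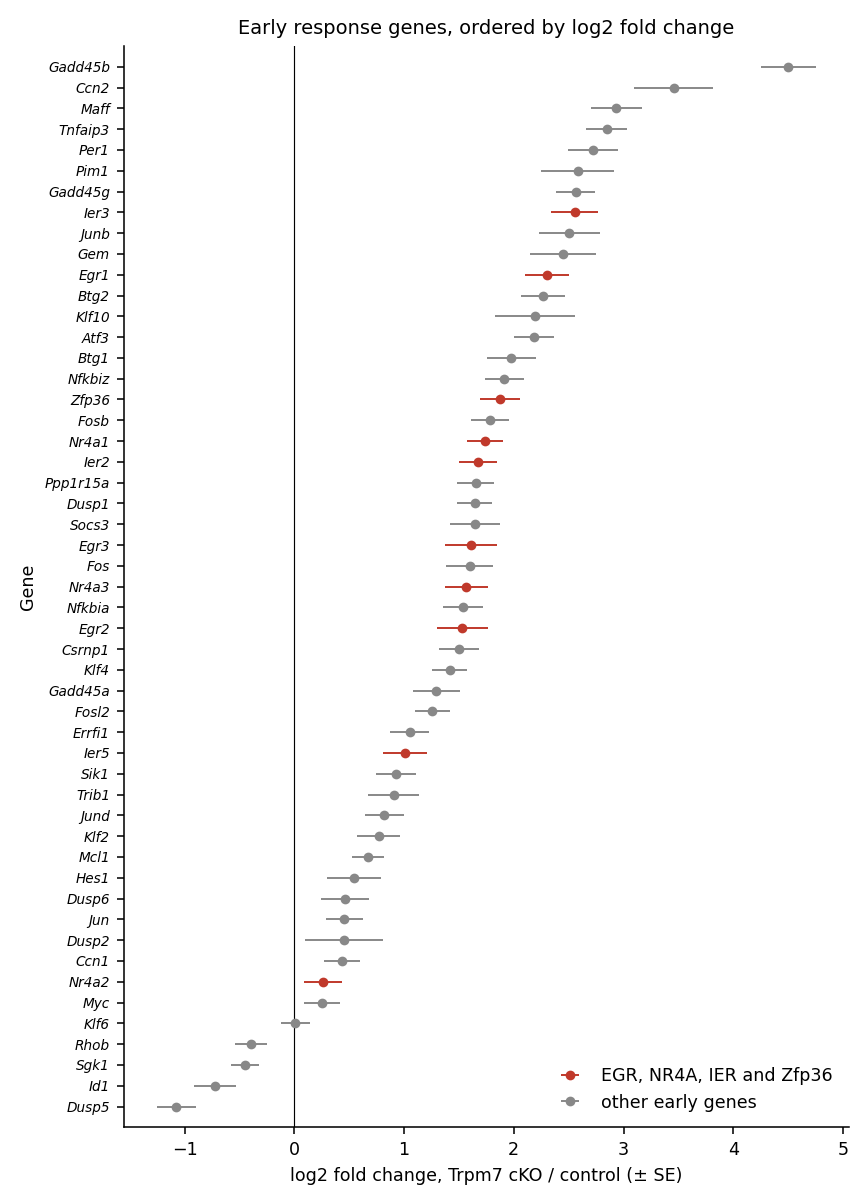
Log2 fold change of Trpm7 cKO over control with SE under TMM, for the 10 members (red) and 41 other tested early genes (grey), in order of size. The members are spread from Ier3 at 2.55 near the top to Nr4a2 at 0.26, which has 6 grey genes below it, and 4 grey genes lie below 0 by more than their SE.

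Messengers known to be bound by tristetraprolin were also listed, 16 in the table and 11 tested, Ier3 among them. Of these, 7 were higher in Trpm7 cKO, 1 was lower and 3 were not called, beside 24.6% of all genes higher and 24.1% lower. The median log2 fold change of the 11 was 2.55, which is the value of Ier3. Ier3 is also 1 of the 7 called higher, and as a member it was chosen on this contrast. Tnf, Il1b and Il6, also called higher, were at 1.65 ± 2.14, 4.61 ± 2.36 and 6.52 ± 6.2 CPM in control. In Trpm7 cKO they were at 28.1 ± 12.4, 88.2 ± 60.5 and 62.8 ± 20.6 CPM, so they passed the filter on low counts only through that group. The number called higher and the median were thus partly fixed by the choice of genes and the filter, and nothing is read from them. Cxcl2, a neutrophil chemokine, rose from 30.0 ± 5.92 to 513 ± 223 CPM (log2 fold change 4.06 ± 0.33, adjusted p = 4.9e-07). Il1b, a cytokine of myeloid cells, rose from 4.61 ± 2.36 to 88.2 ± 60.5 CPM (4.06 ± 0.59, adjusted p = 0.000111). Cxcl1 was common in both genotypes, at 211 ± 27.6 and 658 ± 153 CPM (1.64 ± 0.17, adjusted p = 3.26e-07). Il1b and Cxcl2 are also transcripts of leukocytes, whose markers were higher in the same libraries. With the leukocyte score as a covariate Il1b was at -0.36 ± 0.90 (adjusted p = 0.875), Cxcl2 at 1.43 ± 0.40 (adjusted p = 0.0334) and Cxcl1 at 2.15 ± 0.41 (adjusted p = 0.00204).

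Myod1, the myogenic factor whose mRNA tristetraprolin is known to limit in quiescent satellite cells, was the 1 listed messenger that fell. It went from 744 ± 111 to 181 ± 36.6 CPM, a log2 fold change of -2.01 ± 0.16 (adjusted p = 1.84e-08), with separate groups. Per 3000 cells and on MuSC identity genes it was lower as well, at -3.11 and -2.32.

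The genes most like the leading member of each family were found by the root-mean-square difference of gene-centred log2 CPM over the 10 libraries. That difference holds the contrast of genotypes on which the members were chosen, so the distances are a description and carry no test. For Egr1 the nearest genes were Btg2 (0.11), Htra3 (0.13) and Nfia (0.17), where the median of all genes was 1.25. Their log2 fold changes were 2.27, 2.24 and 2.155, beside 2.31 for Egr1. For Nr4a1 the nearest were Fosb (0.14), Brd2 (0.17) and Nr3c1 (0.17), and Zfp36 had Fosb (0.15), Nr3c1 (0.15) and Add3 (0.19). Log2 fold changes were 1.78 for Fosb, 1.73 for Brd2, 1.74 for Nr3c1 and 1.98 for Add3. Those of Nr4a1 and Zfp36 were 1.74 and 1.87. Ier5, the IER gene with the highest mean level over all libraries, was nearest to Spag9 (0.11), Arhgap10 (0.14) and P3h4 (0.15). Log2 fold changes of these were 0.94, 1.15 and 0.77, beside 1.01 for Ier5. Among the members themselves, Nr4a1 and Ier2 were the nearest pair (0.21), and Nr4a2 and Ier3 the farthest (1.20).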

How the data were processed

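MuSCs from 5 control and 5 Trpm7 cKO libraries were compared 3 days after CTX. The authors extracted barcodes and UMIs with UMI-tools 1.1.4, trimmed reads with Trim Galore 0.6.10, aligned them to GRCm38 with HISAT2 2.2.1 and collapsed UMI duplicates among reads counted per gene by featureCounts 2.0.6. The deposited values are raw counts, 1 per molecule. The annotation release and strand setting are not given in the sources used here. The table has 24620 entries under 24608 symbols, and where 12 symbols came on a further line the entry with the larger total was kept.

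Counts were fitted with edgeR 4.0.16 in R 4.3.3 (filterByExpr with a minimum count of 10 and a minimum total of 15, TMM, robust quasi-likelihood fit and F test, Benjamini-Hochberg over 7753 genes), with genotype as the only term, after a test on simulated data. SE is the log2 fold change over the square root of F. Thresholds were an adjusted p of 0.05 and a log2 fold change of 1.5. The members, gene lists and alternatives were chosen with earlier results of these data known. The text names all members, the called partners, and of each other list up to 2 genes at either end with a mean of at least 20 CPM and, for the leading member of each family, the 3 most similar genes. Nab2, Cnot1, Cnot7, Egr4 and the within-library ratios were named after their values were seen. Log2 CPM used a prior count of 2. Positions and 3′ UTRs came from GENCODE vM21 and promoters from RefSeq. No member shared 31-base words of its last 500 bases with another gene. Alternatives were RLE and total-count scaling, scaling on MuSC identity genes, counts per 3000 cells, DESeq2 1.42.0, no filter, thinning to 205980 counts, a leukocyte covariate, a replicate block and each library left out. Leaving out both libraries that share a label number was added after seeing the data.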

Additional observations from a re-analysis of the deposited data

Results flagged for a closer look

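In 52 groups of 5 libraries (each member and each named list gene, in each genotype), the gap between the most extreme library and its nearest neighbour was divided by the whole range, and 5 groups passed Dixon's critical value of 0.71. Chance alone flags about 1 in 20 groups. Ier3 reached 750.5 CPM in Trpm7 cKO replicate 5, where the next library had 468 CPM. Zfp36 reached 501.3 CPM in control replicate 5, where the next control had 320 CPM. Ier5l was at 44.15 CPM in Trpm7 cKO replicate 5, above the next at 24.0 CPM. Met was at 22.07 CPM in Trpm7 cKO replicate 5, below the next lowest at 64.4 CPM. Myod1 was at 551.4 CPM in control replicate 2, below the next lowest at 764 CPM. Trpm7 cKO replicate 5, named in 3 of these, is the smallest library with 205986 counts.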

How the results depend on the processing

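The number of members called was 9 under RLE factors, total counts, DESeq2, no filter, the MuSC identity scaling, each library left out, and both libraries sharing a label number left out, 8 after thinning and 7 with the leukocyte covariate. It was 3 per 3000 cells, 2 of them higher and Nr4a2 lower. The share of all genes called higher was 25.1% under RLE factors, 27.9% under total counts, 18.2% with DESeq2 and 13.15% with no filter. It was 14.9% under the MuSC identity scaling, 23.5% after thinning, 5.03% with the leukocyte covariate and 4.90% per 3000 cells. With a library left out it was 22.7% to 25.9%, and with both libraries sharing a label number left out 23.5%. Members past both thresholds numbered 3 under the MuSC identity scaling, 0 per 3000 cells and 4 with no filter, 6 with DESeq2, and 6 to 8 with a library left out. The share of all genes past both thresholds and higher was taken under TMM alone, at 8.49%. Per 3000 cells, 18 other early genes were called, where 380 of all genes were called higher and 5162 lower. The leukocyte covariate left 20 other early genes, 2 partners, 5 Zfp36 target messengers and 0 upstream genes. Over all genes it left 390 called higher and 138 lower. The Zfp36 target messengers called numbered 13 with DESeq2 and 13 with no filter, where 16 rather than 11 were tested, and 5 after thinning. Reversed values were Ier5 at -0.29 per 3000 cells and -0.35 with the covariate, Nab1 at -0.39, Ier5l at -0.21 and Zfp36l1 at -0.11 per 3000 cells, and Il1b at -0.36 with the covariate. Nr4a2, not called under TMM at 0.26, was at -0.95 per 3000 cells, -0.82 with the covariate and -0.04 on MuSC identity genes. The cause was not tested.

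With the replicate number as a replicate block, 9 members were called and 8 passed both thresholds, and the lists gave 4, 18, 36 and 8 genes for partners, upstream genes, other early genes and Zfp36 targets. Of all 7753 genes, 1814 were called higher and 1758 lower in that fit. The deviations of same-numbered libraries correlated at -0.04, -0.12, -0.07, 0.06 and 0.18. Libraries of different numbers were not compared in this way, so these values do not settle whether the numbers pair the libraries. Depth limits Egr3, which thinning removed from the genes tested, and Egr4, which stayed below the filter.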
